A study of Mus musculus with 4 samples.

Results

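The genes described here belong to the cellular defence against oxidants, electrophiles and foreign compounds: targets of the transcription factors NRF2 and AHR, and the glutathione transferases. They were 36 genes named by symbol, and all 36 were found among the 54532 genes of the deposited count table. The list was chosen with fold changes from these same libraries known, among them those of Gsta1 and Aldh3a1 after DNMT1 depletion, so the values of its members are given as a description and carry no test. RNA was measured by poly(A) RNA sequencing in 4 samples of C3H10T1/2 cells, an established mouse line of mesenchymal stem cells (MSCs) derived from C3H embryos. The control group received a control siRNA for 48 h, and the siDNMT1 group an siRNA against the maintenance methyltransferase DNMT1. The OB group received the control siRNA and then 3 days of osteoblast (OB) induction with ascorbic acid, β-glycerophosphate and dexamethasone. The siDNMT1_OB group received the siRNA against DNMT1 followed by the same induction. By this order the induced groups were also longer in culture after transfection than the uninduced ones. Induction and this added time cannot be told apart. Lipid transfection and growth in one line were common to all groups, and each group was 1 library, so no difference below has a replicate check.

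NRF2, the product of Nfe2l2, is held low in resting cells because KEAP1 hands it to a ubiquitin ligase, and oxidants or electrophiles that modify KEAP1 let NRF2 build up and bind antioxidant response elements (AREs). Its targets make and recycle glutathione and thioredoxin, supply NADPH, detoxify quinones and conjugate electrophiles. AHR is a receptor for dioxin-like and other aromatic compounds that pairs with ARNT and binds xenobiotic response elements (XREs), and its classical battery includes Cyp1a1, Cyp1b1, Nqo1, Aldh3a1 and Gsta1. In mesenchymal cells, as elsewhere, these systems help to set the redox state.

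The libraries held 27367792 counts for control and 25608719 for siDNMT1, against 22296046 for OB and 26912489 for the library labelled siDNMT1_OB. The 20 most abundant genes held 8.77% to 10.6% of counts and mitochondrial genes 2.53% to 2.83%. Levels are in CPM (counts relative to the TMM-scaled library size), and a count of 3, the floor used here, equalled 0.111 to 0.133 CPM. Dnmt1 was at 265 CPM in control and 132 in siDNMT1, against 85.4 in OB and 93.1 in the library labelled siDNMT1_OB. It was thus lower in siDNMT1 than in control, with a log2 fold change of −1.01 (−1.07 to −0.95), the brackets holding an exact 95% counting interval. Between the library labelled siDNMT1_OB and OB it was 0.13 (0.04 to 0.21), which goes against the label. Directions for the siRNA drawn from that library thus rest on its label, as does the siRNA named for each induction contrast. Mesenchymal markers summed to between 24800 and 31370 CPM, with 10 of 10 over the floor, and Col1a1, Col1a2 and Vim made up most of that sum. Among the other mesenchymal markers Ly6a was called lower in siDNMT1 than in control at −1.03. Pdgfra was called higher with OB induction at 2.47 under the control siRNA and 1.56 under the DNMT1 siRNA, and Thy1 under the DNMT1 siRNA at 1.22. Leukocyte markers summed to 2.69 to 4.56 CPM with 4 of 8 over the floor and Adgre1 at 0, endothelial markers to 2.29 to 7.85 CPM with 3 of 5, and epithelial markers to 0.354 to 1.14 CPM with 1 of 6 and Epcam at 0. Hepatocyte markers, listed because liver is rich in these enzymes, summed to 0.184 CPM in control and 2.62 in siDNMT1, against 0.929 in OB and 0.561 in the library labelled siDNMT1_OB, with Alb at 3, 51, 18 and 10 counts. Most of the endothelial sum was Tek, at 1.88 CPM in control and 5.93 in siDNMT1, against 2.79 in OB and 7.59 in the library labelled siDNMT1_OB. Going by the labels, Tek was higher with the DNMT1 siRNA in each pair. For the induced pair this direction rests on a label that Dnmt1 goes against. The part of these marker genes in the results was not tested. In bulk RNA, fewer cells of a type and less RNA per cell cannot be told apart.

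Sequences around the members' start sites show which carry the motifs of NRF2 and AHR. RefSeq promoter windows on GRCm38.p6, from 250 bases before to 50 bases after each start, were matched for 29 of the 36 genes, leaving out Gsta4, Aldh3a1, Gclc, Ahr, Hmox1, Gsr and Abcc1. The ARE core TGACNNNGC, searched on both strands, lay in the windows of 11 of the 29 genes, or 37.9%, against 14.0% of all 27025 genes and 12.4% of all 32851 windows. The 11 were G6pdx, Gclm, Gsta3, Gstm5, Me1, Mgst1, Nfe2l2, Pgd, Prdx1, Srxn1 and Txnrd1. The XRE core TNGCGTG lay in 3 of the 29, namely Ahrr, Gsta2 and Pgd, or 10.3%, against 5.8% of all genes. Where its open letters are TCA, the ARE core also holds the AP-1 site TGACTCA, as in Prdx1 and Me1. These are matches of letters and not measured binding. The stretches below hold an ARE core in capitals, read 5′ to 3′ on the gene's strand. They were chosen because their genes illustrate different behaviour in the results, except Gsta3, whose counts were too few to compare. They are Gsta3 at chr1:21240444-21240492, Gclm at chr3:122245403-122245451, Prdx1 at chr4:116685446-116685494, Txnrd1 at chr10:82859094-82859142 and Mgst1 at chr6:138140461-138140489, all on the plus strand. Mgst1 is cut shorter since its stretch lies within an annotated first exon.
Gsta3: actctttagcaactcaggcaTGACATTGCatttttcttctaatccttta
Gclm: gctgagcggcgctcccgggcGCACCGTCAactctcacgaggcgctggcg
Prdx1: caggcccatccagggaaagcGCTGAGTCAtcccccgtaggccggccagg
Txnrd1: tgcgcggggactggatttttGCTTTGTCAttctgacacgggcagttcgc
Mgst1: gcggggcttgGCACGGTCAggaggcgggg

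Gsta1 and Gsta2 are shown because their counts cannot be separated with certainty. Their longest coding transcripts were 97.2% identical over 870 aligned bases, and 44.6% of the 50-base windows of Gsta1 were found unchanged in Gsta2. Upstream of the start sites, their 250 bases were 77.0% identical over 239 aligned bases. The 150 bases before each RefSeq start are given for Gsta1 at chr9:78230519-78230668 on the plus strand and Gsta2 at chr9:78347146-78347295 on the minus strand, and the capitals mark the XRE core, which this stretch of Gsta1 does not hold.
Gsta1: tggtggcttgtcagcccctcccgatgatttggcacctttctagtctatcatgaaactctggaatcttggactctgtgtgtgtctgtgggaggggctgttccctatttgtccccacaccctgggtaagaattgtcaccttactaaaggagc
Gsta2: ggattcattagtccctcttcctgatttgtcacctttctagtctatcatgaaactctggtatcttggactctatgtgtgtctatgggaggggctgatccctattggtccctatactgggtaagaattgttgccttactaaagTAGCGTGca

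Of the 36 genes, 32 passed the filter of a mean level of at least 1 CPM, and Ahrr, Gsta2, Gsta3 and Cyp1a1 did not. Gsta1 passed only through the control library. A gene was called where its log2 fold change (prior count of 2) was at least 1 in size. In siDNMT1 against control, 0 members were called higher, beside 1.97% of the 13233 genes tested, and 4 lower (Aldh3a1, Gsta1, Gsta4 and Mgst1), beside 1.37%. In the library labelled siDNMT1_OB against OB, 0 were called higher, beside 2.36% of all genes, and 2 lower (Mgst1 and Aldh3a1), beside 1.37%. OB induction with the control siRNA gave 5 called higher (Gstt1, Mgst1, Gstm5, Gclc and Gstm2), beside 10.6% of all genes, and 8 lower (Ahr, Gsta1, Aldh3a1, Slc7a11, Txnrd1, Srxn1, Nqo1 and Gsr), beside 7.1%. OB induction with the DNMT1 siRNA gave 4 called higher (Mgst1, Gsta4, Gstm5 and Gstt1), beside 6.83%, and 2 lower (Ahr and Slc7a11), beside 2.71%. Since the members were chosen knowing such results, nothing is read from these shares.

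The members' median log2 fold change was −0.20 in siDNMT1 against control, where 26 of 32 values were negative, against 49.7% positive over all genes tested. In the library labelled siDNMT1_OB against OB the median was −0.02, with 16 of 32 negative. With OB induction the medians were −0.19 under the control siRNA and 0.17 under the DNMT1 siRNA, while the median of all genes tested lay between −0.001 and 0.013 in the 4 comparisons. Summed over all 36 genes, the level was 4942 CPM in control and 4272 in siDNMT1, against 4471 in OB and 4638 in the library labelled siDNMT1_OB. Cyp1b1 alone made up 1113, 1093, 1059 and 1260 CPM of these sums in the same order, so the sums lean on this gene. The control library held the highest value for 15 of the 32 genes and the lowest for 2, while siDNMT1 held the highest for 4 and the lowest for 14. OB held the highest for 11 and the lowest for 12, and the library labelled siDNMT1_OB the highest for 2 and the lowest for 4. These counts were not made over all genes tested, so nothing is read from them.

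**Figure D1:**
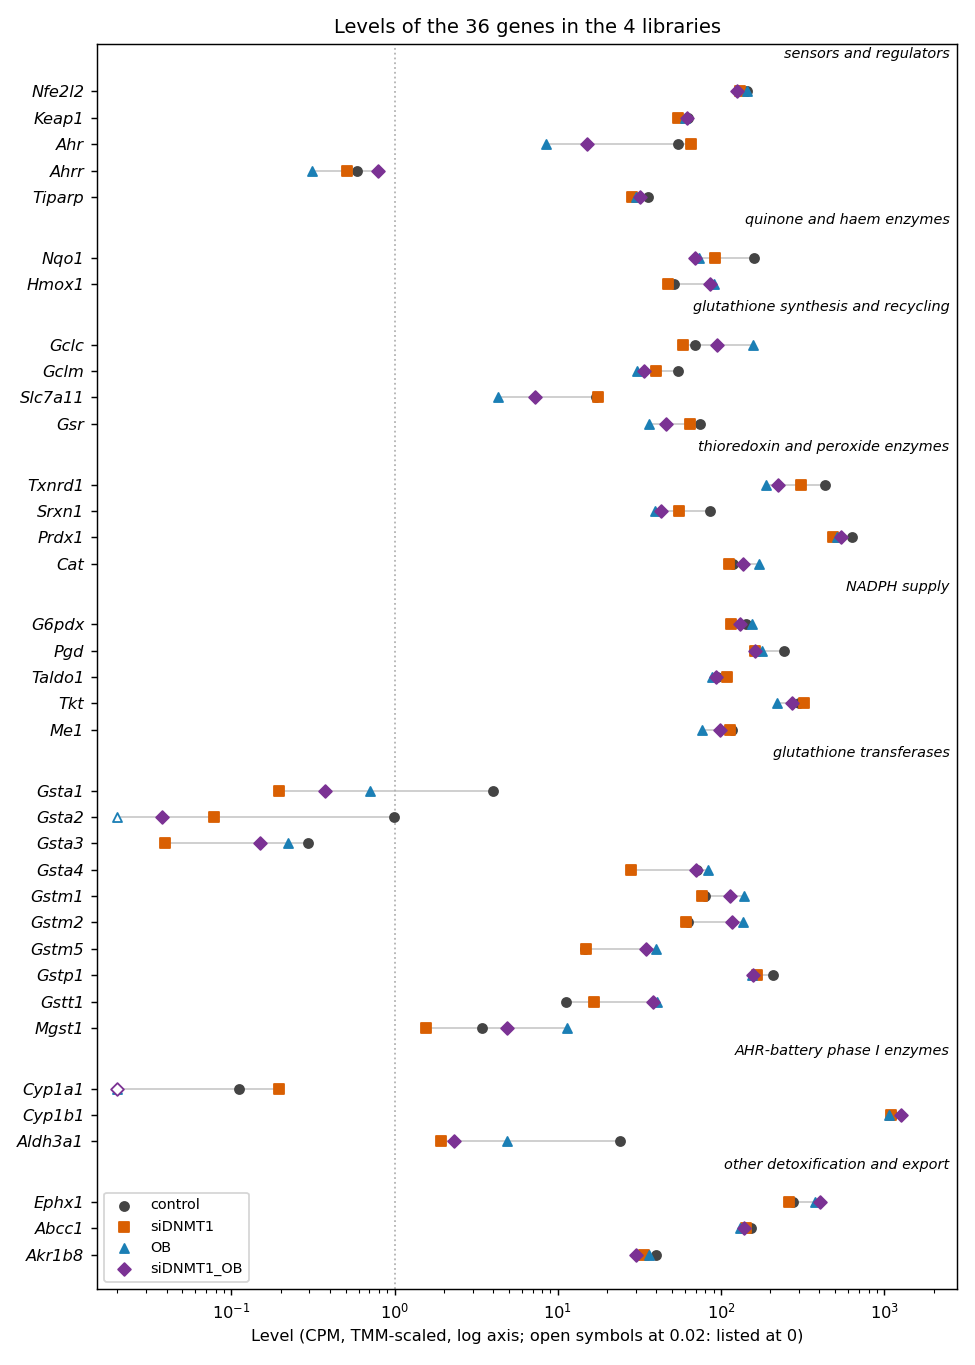
Level of each of the 36 genes in each library, in TMM-scaled CPM on a log axis, grouped by role; each symbol is 1 library, open symbols stand for a count of 0, and the dotted line marks 1 CPM. Cyp1b1 lies furthest right at 1059 to 1260 CPM, whereas Gsta1, Gsta2 and Aldh3a1 spread widely, with the control library highest.

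Nfe2l2 and its repressor Keap1 varied little. Nfe2l2, encoding NRF2, was at 144 CPM in control and 130.4 in siDNMT1, against 144 in OB and 125 in the library labelled siDNMT1_OB, with log2 fold changes from −0.21 to 0.00 over the 4 comparisons. Keap1 was at 62.2 CPM in control and 54.2 in siDNMT1, against 60.1 in OB and 62.0 in the library labelled siDNMT1_OB, and no comparison moved it by more than −0.20 in size. Transcript levels do not report the amount of NRF2 protein, which is controlled by degradation. Keap1 also shares 10.9% of its exon bases with an antisense gene, Gm16754, whose counts were 41 to 60, and whether strand was used in counting is not stated.

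Ahr changed most among the regulators. The receptor (ENSMUSG00000019256, chr12:35497974-35535038, minus strand) was at 54.1 CPM in control and 64.9 in siDNMT1, against 8.45 in OB and 15.1 in the library labelled siDNMT1_OB. Both uninduced libraries were high and both induced libraries low, an order that was not counted over all genes tested. OB induction gave −2.67 (−2.90 to −2.46) with the control siRNA and −2.09 (−2.26 to −1.94) with the DNMT1 siRNA, and it was called lower in both. For Ahr the value was 0.26 (0.16 to 0.37) in siDNMT1 against control. In the library labelled siDNMT1_OB against OB it was 0.84 (0.59 to 1.10), the largest in size among the tested members not called there. Tiparp, an AHR-induced mono-ADP-ribosyltransferase that restrains the receptor, was at 35.7 CPM in control and 28.2 in siDNMT1, against 30.2 in OB and 31.8 in the library labelled siDNMT1_OB, and none of its comparisons exceeded −0.34 in size. Ahrr, the AHR repressor, had counts of 16 in control and 13 in siDNMT1, against 7 in OB and 21 in the library labelled siDNMT1_OB and stayed below 1 CPM in every library.

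Of the 2 phase I enzymes of the AHR battery that were tested, Aldh3a1 was called in 3 of the 4 comparisons, each time lower, beside 1.37% to 7.1% of all genes, and Cyp1b1 in 0. This aldehyde dehydrogenase (ENSMUSG00000019102, chr11:61207537-61218421, plus strand) had counts of 651 in control and 49 in siDNMT1, against 110 in OB and 62 in the library labelled siDNMT1_OB, that is 24.0 CPM in control and 1.91 in siDNMT1, against 4.86 in OB and 2.32 in the library labelled siDNMT1_OB. The control library stood above the other 3, which lay between 1.91 and 4.86 CPM. It was lower in siDNMT1 than in control by 12.6-fold (95% counting interval 9.38 to 17.1), a log2 fold change of −3.60 (−4.10 to −3.23). With induction under the control siRNA it was also called lower, at −2.28 (−2.61 to −2.01). After induction the siRNA contrast was −1.05 (−1.54 to −0.61), just past the threshold of 1, and induction with the DNMT1 siRNA gave 0.27 (−0.29 to 0.85), an interval that holds 0. The first 2 of these contrasts share the control library, so the high control value enters both.

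Cyp1b1, a P450 that oxidises polycyclic compounds and oestrogens, was at 1113 CPM in control and 1093 in siDNMT1, against 1059 in OB and 1260 in the library labelled siDNMT1_OB. Per length it was among the most abundant members, at 217 CPM per kb in control and 213 in siDNMT1, against 207 in OB and 246 in the library labelled siDNMT1_OB. No comparison exceeded 0.25 in size. Its relative Cyp1a1, the usual readout of AHR activity, had counts of 3 in control and 5 in siDNMT1, against 0 in OB and 0 in the library labelled siDNMT1_OB. The level of Cyp1a1 was therefore near or under the floor in each library, and no change was detectable at this depth.

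Nqo1 and Hmox1, the classical NRF2-responsive enzymes of quinone and haem breakdown, went different ways with OB induction. Nqo1 was at 159 CPM in control and 91.9 in siDNMT1, against 73.5 in OB and 69.1 in the library labelled siDNMT1_OB, highest in control. Its log2 fold change was −0.79 (−0.86 to −0.72) in siDNMT1 against control, the largest in size among the tested members not called there. With OB induction and control siRNA it was called lower at −1.11 (−1.20 to −1.03), and with the DNMT1 siRNA it was −0.41 (−0.50 to −0.32). After induction the siRNA pair was −0.09 (−0.18 to 0.01), an interval that holds 0. Hmox1 was at 51.5 CPM in control and 47.1 in siDNMT1, against 89.9 in OB and 85.4 in the library labelled siDNMT1_OB. With OB induction it was 0.80 with the control siRNA and 0.86 with the DNMT1 siRNA, short of the threshold.

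Glutathione synthesis and recycling split by gene. Gclc, the catalytic subunit of glutamate-cysteine ligase, was at 69.4 CPM in control and 58.6 in siDNMT1, against 158 in OB and 94.4 in the library labelled siDNMT1_OB, whereas its modifier subunit Gclm was at 54.4 CPM in control and 39.7 in siDNMT1, against 30.5 in OB and 33.7 in the library labelled siDNMT1_OB. The subunits had opposite signs on induction. Gclc was called higher at 1.18 (1.10 to 1.26) with the control siRNA, and Gclm was −0.83 (−0.97 to −0.70). With the DNMT1 siRNA the same values were 0.69 (0.60 to 0.78) for Gclc and −0.24 (−0.37 to −0.11) for Gclm. Between the library labelled siDNMT1_OB and OB, Gclc was −0.74 (−0.81 to −0.66). Gclm shares 4.7% of its exon bases with other genes, of which the antisense gene Gm17494 had 71 to 168 counts.

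Slc7a11, the cystine importer that feeds glutathione synthesis, was at 17.2 CPM in control and 17.6 in siDNMT1, against 4.29 in OB and 7.21 in the library labelled siDNMT1_OB. It was called lower with induction under both siRNAs, at −1.99 (−2.34 to −1.69) with control and −1.28 (−1.54 to −1.04) with DNMT1 siRNA. The siRNA pair was 0.04 (−0.15 to 0.22) before and 0.74 (0.39 to 1.12) after induction. Gsr, which returns oxidised glutathione to its reduced form, was at 74.2 CPM in control and 64.3 in siDNMT1, against 36.2 in OB and 46.0 in the library labelled siDNMT1_OB. Its induction value of −1.03 (−1.16 to −0.92) with control siRNA was the closest to the threshold among those called, and upper quartile scaling gave −0.99, short of it.

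In the thioredoxin and peroxide group, all 4 genes had negative values in siDNMT1 against control, with a median of −0.44. Txnrd1, thioredoxin reductase, was at 434 CPM in control and 307 in siDNMT1, against 189 in OB and 221 in the library labelled siDNMT1_OB. Srxn1, which repairs over-oxidised peroxiredoxins, was at 85.4 CPM in control and 55.2 in siDNMT1, against 39.3 in OB and 42.6 in the library labelled siDNMT1_OB. Prdx1, an abundant peroxiredoxin, was at 628 CPM in control and 485 in siDNMT1, against 509 in OB and 544 in the library labelled siDNMT1_OB. All 3 were highest in control. Txnrd1 was −0.50 (−0.54 to −0.46) in siDNMT1 against control and 0.23 (0.17 to 0.28) in the library labelled siDNMT1_OB against OB. Srxn1 was −0.63 (−0.73 to −0.53) and 0.11 (−0.01 to 0.24) in the same pairs. Induction with the control siRNA called both lower, at −1.20 (−1.25 to −1.15) for Txnrd1 and −1.12 (−1.23 to −1.01) for Srxn1, and with the DNMT1 siRNA they were −0.47 and −0.37. Cat, catalase, was at 117 CPM in control and 111 in siDNMT1, against 169.5 in OB and 136 in the library labelled siDNMT1_OB, highest in OB, and was not called in any comparison.

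**Figure D2:**
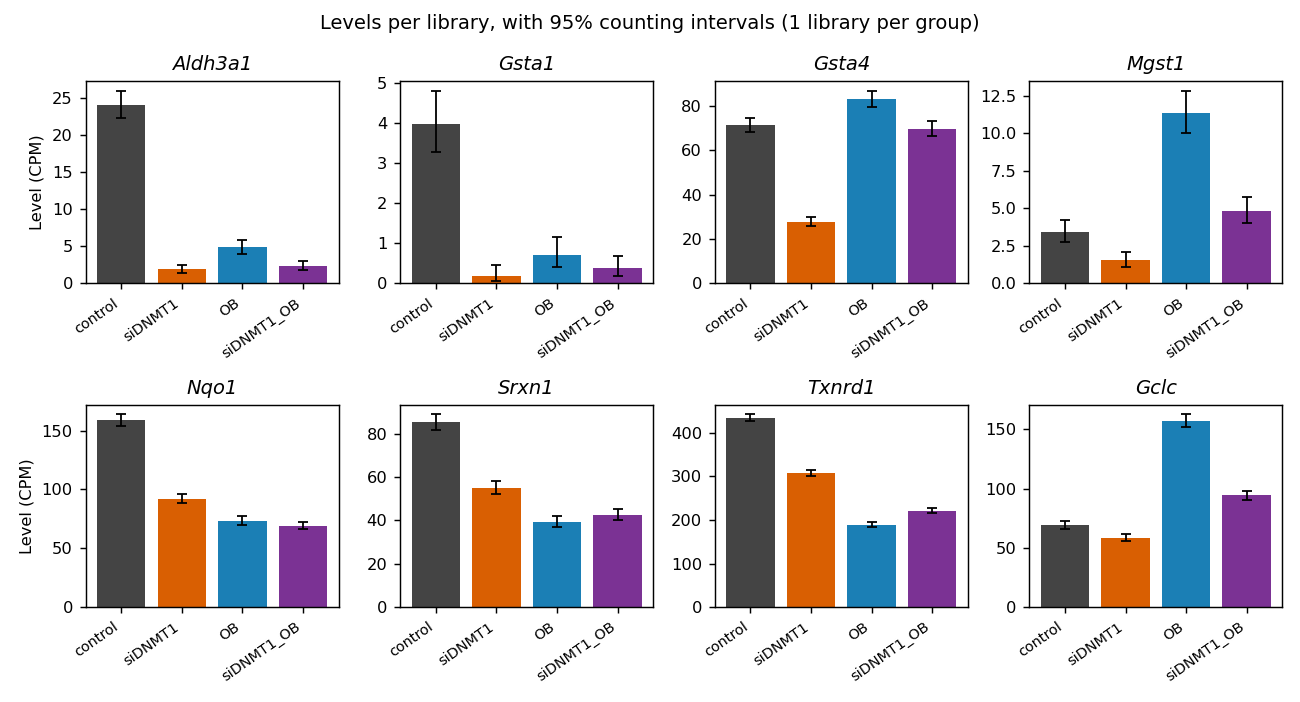
Level in CPM of 8 genes in each library, from 0, with bars for single libraries and error bars for exact 95% counting intervals (counting error only). Aldh3a1 and Gsta1 stand high in control only, Gsta4 is low in siDNMT1 only, and Gclc is highest in OB.

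Of the genes of NADPH supply, 0 of 5 were called in any of the 4 comparisons, beside 1.37% to 10.6% of all genes in each direction. G6pdx and Pgd, of the oxidative pentose phosphate pathway, were at 114 to 155 CPM and 162 to 243 CPM over the libraries. Pgd had the largest siRNA contrast of the group, −0.58 (−0.64 to −0.53) in untreated cells, and was −0.14 after induction. Taldo1 and Tkt, of the non-oxidative branch, were slightly higher in siDNMT1 than in control, at 0.21 and 0.10. Me1, malic enzyme, was −0.02 in untreated cells, 0.36 after induction and −0.59 with induction under control siRNA. The sum of the 5 genes was 894 CPM in control and 820.3 in siDNMT1, against 718 in OB and 754 in the library labelled siDNMT1_OB. G6pdx shares 13.6% of its exon bases with Ikbkg on the opposite strand, which had 1738 to 2495 counts.

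The glutathione transferases, which conjugate glutathione to electrophiles, were the largest group and the one with the most calls. Of the 10 genes, 8 were tested. With OB induction 4 were called higher under the control siRNA and 4 under the DNMT1 siRNA, beside 10.6% and 6.83% of all genes, with medians of 0.96 and 1.07. Under the control siRNA 1 was called lower, Gsta1 at −2.37, beside 7.1% of all genes. In siDNMT1 against control 3 were called lower, beside 1.37%, one of them Gsta1, which passed the filter only through the control library in which it is high. In the library labelled siDNMT1_OB against OB 1 was called lower, Mgst1 at −1.21, beside 1.37%. The 10 genes summed to 456 CPM in control and 365 in siDNMT1, against 605 in OB and 535 in the library labelled siDNMT1_OB.

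Within the alpha class, Gsta4, which acts on the lipid peroxidation product 4-hydroxynonenal, was the most abundant per length. Gsta4 (ENSMUSG00000032348, chr9:78182774-78209349, plus strand) was at 71.5 CPM in control and 27.9 in siDNMT1, against 83.1 in OB and 69.8 in the library labelled siDNMT1_OB. The siDNMT1 library alone was low, and the other 3 lay between 69.8 and 83.1 CPM. It was lower in siDNMT1 than in control by 2.57-fold (95% counting interval 2.35 to 2.8), a log2 fold change of −1.36 (−1.48 to −1.23), and in the library labelled siDNMT1_OB against OB it was −0.25 (−0.34 to −0.16). Induction gave 0.22 (0.13 to 0.31) with the control siRNA and 1.32 (1.20 to 1.45) with the DNMT1 siRNA, the latter called higher. The low siDNMT1 value enters both called contrasts.

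Gsta1 (ENSMUSG00000074183, chr9:78230656-78242684, plus strand) had counts of 108 in control and 5 in siDNMT1, against 16 in OB and 10 in the library labelled siDNMT1_OB, and Gsta2 had counts of 27 in control and 2 in siDNMT1, against 0 in OB and 1 in the library labelled siDNMT1_OB. Gsta1 was lower in siDNMT1 than in control by 20.4-fold (95% counting interval 8.48 to 64.1), a log2 fold change of −3.89 (−6.00 to −3.08), and induction with the control siRNA gave −2.37 (−3.35 to −1.73). Gsta2 was lower in siDNMT1 than in control by 12.8-fold (95% counting interval 3.2 to 111) on 2 counts, and with 27 counts in control and 0 in OB the lower limit of the counting interval was 5.70-fold. Summing the counts of the near-identical pair, an alternative chosen after seeing the data, gave −3.85 (−5.53 to −3.10) for siDNMT1 against control and −2.69 (−3.66 to −2.06) for induction with control siRNA, close to Gsta1 alone. In induced cells the siRNA pair for Gsta1 was −0.80 (−2.22 to 0.31), an interval that holds 0. Gsta3 had counts of 8 in control and 1 in siDNMT1, against 5 in OB and 4 in the library labelled siDNMT1_OB, too few to compare.

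The 3 mu class members had positive values with induction under both siRNAs. Gstm1 was at 79.9 CPM in control and 75.9 in siDNMT1, against 139 in OB and 113 in the library labelled siDNMT1_OB. Gstm2 was at 62.8 CPM in control and 60.9 in siDNMT1, against 137 in OB and 117 in the library labelled siDNMT1_OB. Gstm5 was at 14.7 CPM in control and 14.8 in siDNMT1, against 39.7 in OB and 34.6 in the library labelled siDNMT1_OB. For each, both induced libraries stood above both uninduced libraries. The share of all genes tested with such an order was not computed, so nothing is read from it. Induction with the control siRNA gave 0.79, 1.12 (1.04 to 1.21) and 1.43 (1.26 to 1.61) for Gstm1, Gstm2 and Gstm5, of which the last 2 were called. With the DNMT1 siRNA the values were 0.57, 0.94 and 1.22 (1.05 to 1.40), of which only Gstm5 was called. In untreated cells the siRNA values of all 3 had intervals holding 0, and after induction they were −0.30, −0.23 and −0.20. Gstm5 shares 13.9% of its exon bases with the antisense gene 4933431E20Rik, whose counts were 179, 172, 404 and 415 in the same order of libraries, so part of its counts is uncertain.

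Gstt1, of the theta class, was at 11.2 CPM in control and 16.6 in siDNMT1, against 40.4 in OB and 38.2 in the library labelled siDNMT1_OB. It was called higher with induction at 1.85 (1.67 to 2.05) and 1.20 (1.04 to 1.37) under the control and DNMT1 siRNAs. It also had the most positive siRNA value of all members in untreated cells, 0.56 (0.35 to 0.78), and −0.08 (−0.21 to 0.05) after induction. Mgst1, a microsomal transferase with peroxidase activity, was at 3.43 CPM in control and 1.56 in siDNMT1, against 11.4 in OB and 4.86 in the library labelled siDNMT1_OB. It was lower in siDNMT1 than in control, at −1.10 (−1.71 to −0.59). The library labelled siDNMT1_OB was likewise below OB, at −1.21 (−1.54 to −0.92). Induction gave higher values under both siRNAs, at 1.71 (1.38 to 2.09) and 1.59 (1.12 to 2.19). Mgst1 and Aldh3a1 were the members called lower in both siRNA pairs, beside 0.31% of all genes tested. The direction in the induced pair rests on the label of siDNMT1_OB and would turn with it. The untreated value of Mgst1 rests on 93 and 40 counts.

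Gstp1, the pi class enzyme, was at 207 CPM in control and 167 in siDNMT1, against 154 in OB and 158 in the library labelled siDNMT1_OB. Its counts can include reads of Gstp2, since the longest transcripts were 95.7% identical and 62.3% of 50-base windows were shared, and summing both genes gave −0.31 and 0.03 for the siRNA pairs and −0.43 and −0.09 for induction. Gstp1 alone gave −0.31, 0.04, −0.43 (−0.49 to −0.37) and −0.08 in that order. Per length Gstp1 was the highest member in control, at 274 CPM per kb in control and 220.4 in siDNMT1, against 203 in OB and 208 in the library labelled siDNMT1_OB, followed by Cyp1b1 at 217 and Prdx1 at 207 CPM per kb. The transferases ranged over a wide scale per length: Gsta4 was at 56.5, Gstm1 at 54.2, Gstm2 at 37.4, Gstm5 at 11.5 and Gstt1 at 7.31 CPM per kb in control. In OB, Gstm1 at 94.1 and Gstm2 at 81.6 CPM per kb stood above Gsta4 at 65.7, an order that differs from control.

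**Figure D3:**
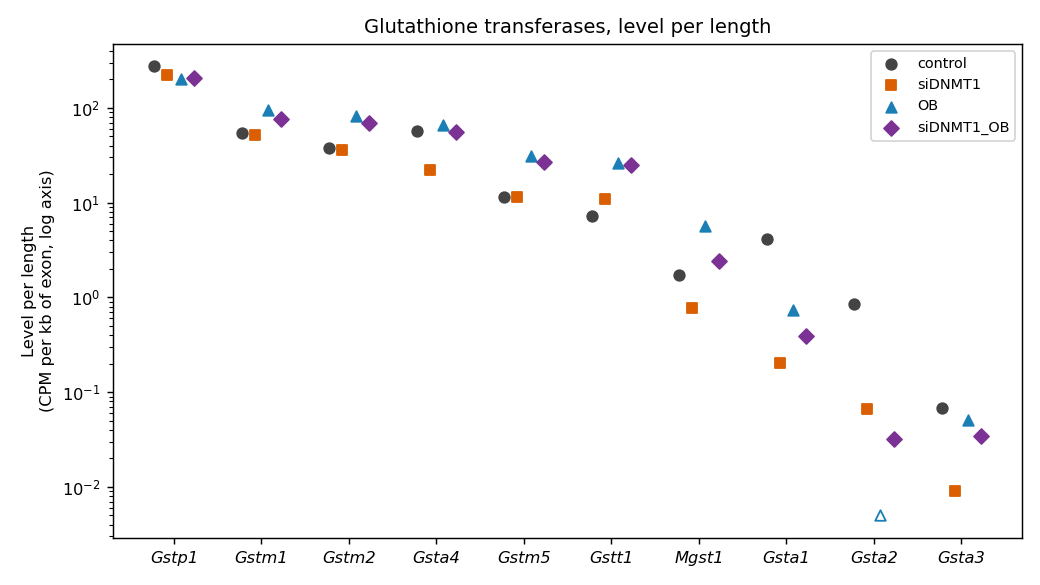
Level per length (CPM per kb of exon, log axis) of the 10 glutathione transferases in each library, ordered by their mean; the open symbol stands for a count of 0. Gstp1 is highest at 203 to 274 CPM per kb. The 2 induced libraries lie above the uninduced ones for Gstm1, Gstm2, Gstm5, Gstt1 and Mgst1, an order not counted over all genes tested.

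Of the other detoxification genes, 0 of 3 were called, beside 1.37% to 10.6% of all genes in each direction. Ephx1, microsomal epoxide hydrolase, was at 275 CPM in control and 261 in siDNMT1, against 376 in OB and 404 in the library labelled siDNMT1_OB, and its induction values were 0.45 and 0.63. Abcc1, an exporter of glutathione conjugates, was at 131 to 153 CPM. Akr1b8, an aldo-keto reductase, was at 29.9 to 40.0 CPM, and its transcript is 80.7% identical to that of Akr1b10.

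The siRNA pairs of the 2 states use different libraries and can be set side by side. In untreated cells the counting interval lay below 0 for 23 of the 32 genes, beside 26.8% of all genes tested, above 0 for 4, beside 26.0%, and held 0 for 5. After induction it lay below 0 for 12, beside 23.6%, above 0 for 10, beside 27.6%, and held 0 for 10. These intervals narrow as counts rise, and nothing is read from the shares. For 5 genes the values had opposite signs with both intervals off 0, namely Gsr, Txnrd1, Prdx1, Ephx1 and Abcc1, each negative in untreated and positive in induced cells. The same held in either order for 12.6% of all genes tested, and in that order for 7.9%. Subtracting the untreated from the induced value, 3 members were at least 1 apart and higher (Gsta1 at 3.09, Aldh3a1 at 2.55 and Gsta4 at 1.11), beside 3.27% of all genes, and 0 were lower, beside 2.95%. Of these, Gsta1 passed the filter only through the control library, in which it is high, and had 5 to 16 counts in the other libraries. Nothing is read from the members' share. Dnmt1 itself differed by 1.13 between the pairs, and its part in these differences was not tested. Signs in induced cells, and so these differences, rest on the label of siDNMT1_OB and would change if it were turned. With 1 library a group the difference has no residual degrees of freedom, and it could not be tested.

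**Figure D4:**
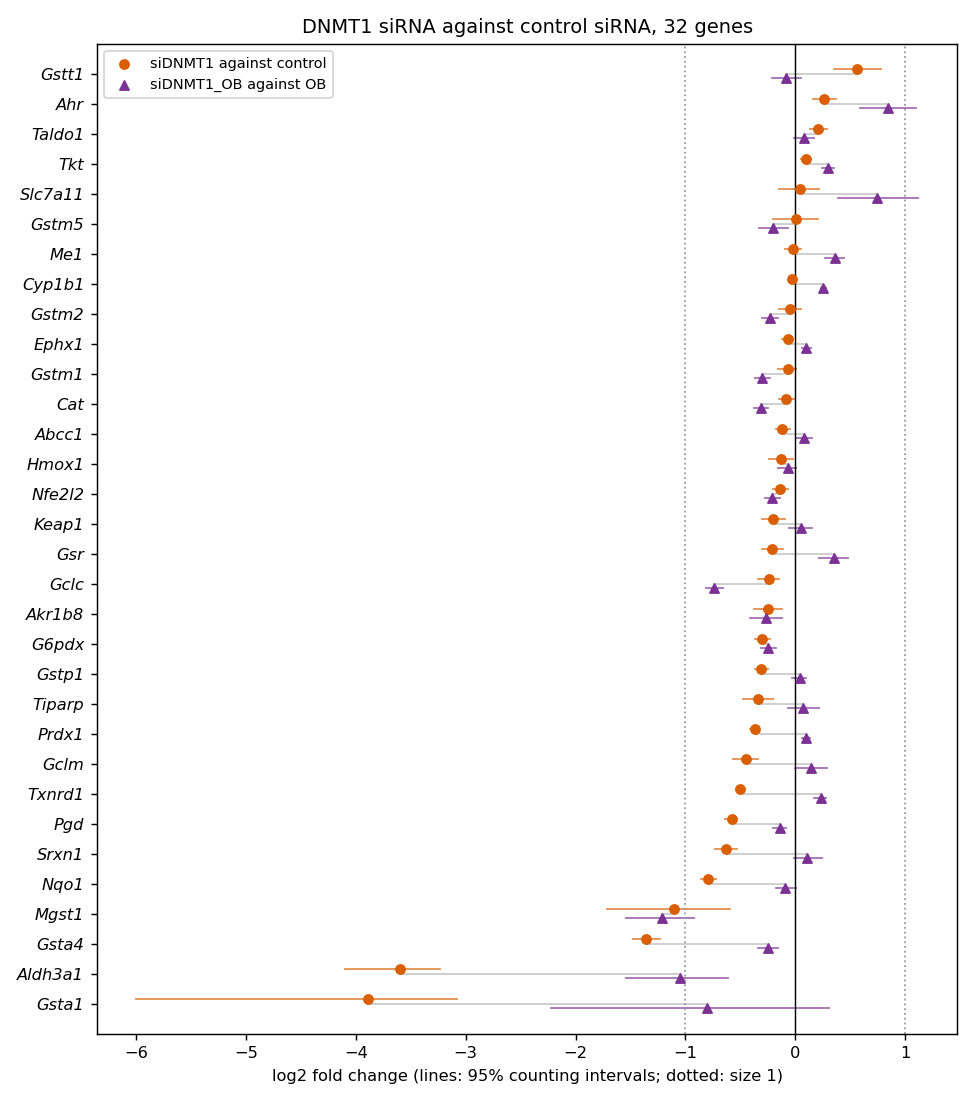
log2 fold change of DNMT1 siRNA against control siRNA, by library label, for the 32 tested genes, in untreated (circles) and OB-induced cells (triangles). Lines mark 95% counting intervals and dotted lines the size called. Untreated values reach −3.89 for Gsta1 and −3.60 for Aldh3a1, while induced values of the same genes are −0.80 and −1.05.

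The induction contrasts also use different libraries for each siRNA. Txnrd1, Srxn1, Nqo1, Gsr, Gsta1 and Aldh3a1 were called lower with the control siRNA and not with the DNMT1 siRNA, where they were −0.47, −0.37, −0.41, −0.48, 0.72 and 0.27. The same pattern of calls was seen for 4.9% of all genes tested, or 648 of the 940 called lower with the control siRNA, and nothing is read from the members' share. Whether the responses differ was not tested.

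**Figure D5:**
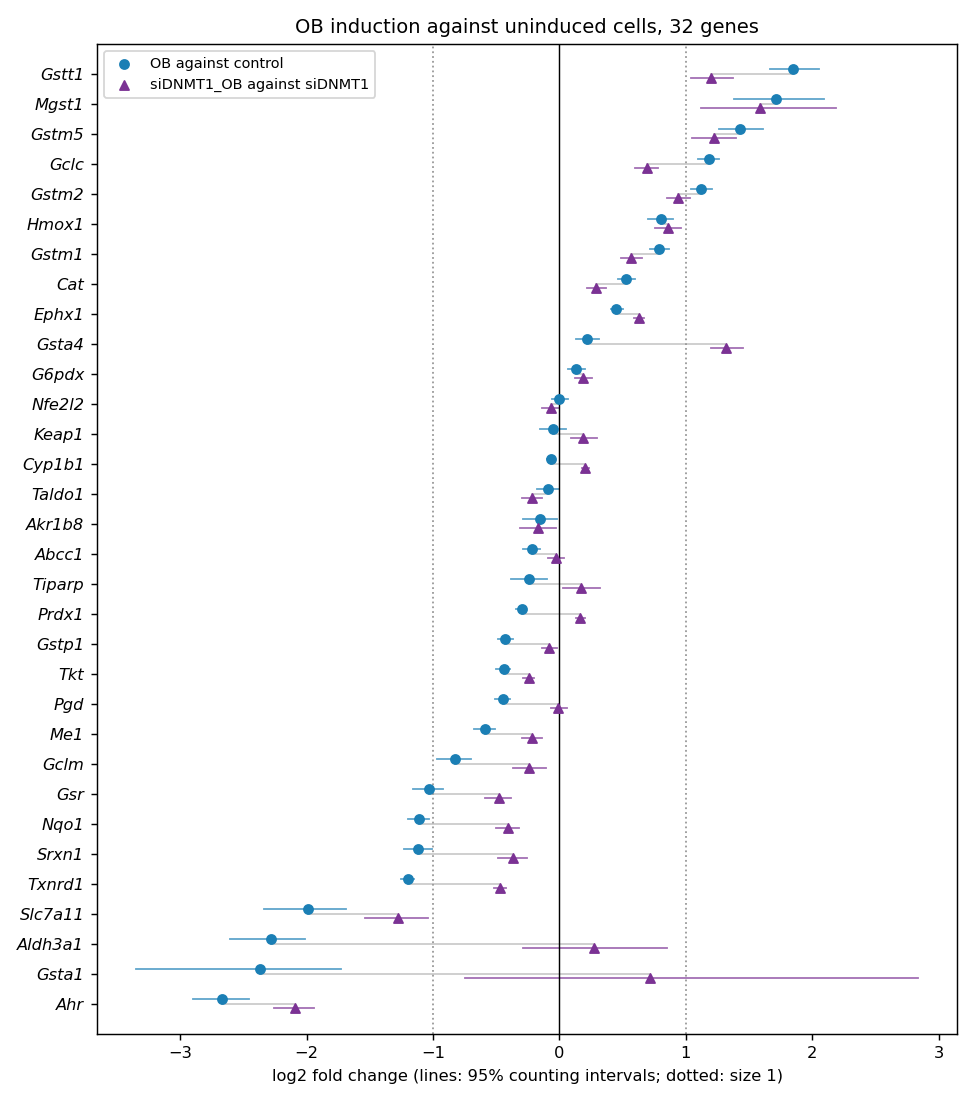
log2 fold change of OB induction against uninduced cells, by library label, for the 32 tested genes, with the control siRNA (circles) and the DNMT1 siRNA (triangles). Lines mark 95% counting intervals and dotted lines the size called. Gstt1, Mgst1 and Gstm5 are highest and Ahr lowest with the control siRNA, and Gsta4 moves from 0.22 to 1.32 between the siRNAs.

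Other genes of these pathways, 87 in 6 lists with 71 tested, give the surroundings of the members. In siDNMT1 against control and in the library labelled siDNMT1_OB against OB, 0 of 71 were called in either direction, beside 1.97% of all genes higher and 1.37% lower in the first and 2.36% and 1.37% in the second. In the former, 54 of 71 values were negative, with a median of −0.20, while 49.7% of all genes tested had positive values. Negative values made up 4 of 10 for other NRF2 partners and regulators, with a median of 0.03, 6 of 8 for other glutathione transferases, 6 of 7 for other AHR pathway genes, 16 of 21 for other antioxidant enzymes and 8 of 11 for other aldo-keto and aldehyde enzymes. Of other NRF2 targets, all 14 tested had negative values in untreated cells, with a median of −0.35. They ran from −0.84 for Cbr3 to −0.06 for Cbr1, and the counting intervals of Cbr1 (−0.20 to 0.09), Osgin1, Blvrb and Htatip2 held 0. The sign held for 14 of 14 under each of the 3 other scalings. These put the median of all genes tested between −0.012 and 0.025, too small a shift to turn a value of −0.06. After induction 9 of the 14 were negative, with a median of −0.10. The ferritin subunits, which store iron, were among them, with Ftl1 at −0.62 and Fth1 at −0.44 in untreated cells.

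With OB induction and control siRNA, 8 of the 71 were called higher, beside 10.6% of all genes tested, and 3 lower, beside 7.1%. Txn1, thioredoxin, was at 592 CPM in control and 451 in siDNMT1, against 294 in OB and 322 in the library labelled siDNMT1_OB, and was called lower at −1.01. The mitochondrial thioredoxin reductase Txnrd2 was called lower at −1.05. Maff, a small MAF partner of NRF2, was called lower at −1.50, and its siRNA values of −0.67 and 0.72 were 1.39 apart. Called higher were Idh1 at 1.04, Gstm4 at 1.43, Gstt2 at 1.27, Sod3 at 1.04, Glrx at 1.00 and the glucuronosyltransferases Ugt1a6a at 1.09, Ugt1a6b at 2.54 and Ugt1a7c at 1.64. Of these 8, Ugt1a6b rests on 4 to 57 counts a library and passed the filter only through the induced libraries, in which it is high, and members of the Ugt1a locus share exons. With the DNMT1 siRNA 5 were called higher, Ugt1a6b, Gstm4, Ugt1a7c, Sod3 and Glrx, beside 6.83% of all genes, and 0 lower, beside 2.71%.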

How the data were processed

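The authors deposited a table of raw, unnormalized whole-number read counts for 4 libraries. Per the study's methods, poly(A) TruSeq libraries were sequenced from both ends on a HiSeq. Trimmomatic was used for trimming, HISAT2 for alignment (mm10 per the submitters' processing notes) and featureCounts for counting. For the RNA libraries, tool versions, strand use and the treatment of multiply aligned reads were not given in the sources used here. Positions are those of the deposited table, on GRCm38, and 34 of 36 members had the same position in GENCODE M21. The members and gene lists were chosen with earlier results of these data known.

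From the counts, TMM factors (edgeR 4.0.16 in R 4.3.3; 0.991 to 1.01) were computed over the 13233 genes tested, those whose CPM averaged at least 1. Fold changes used a prior count of 2, and a log2 fold change of at least 1 in size was called, with no p-value since each group had 1 library. Exact Clopper-Pearson 95% intervals, and floors of 3 counts, cover counting error only, since reads carried no molecular identifiers, and leave out variation between cultures. An additive edgeR quasi-likelihood fit (siRNA plus induction, 1 residual degree of freedom) was used for counts of genes only, with DESeq2 1.42.0 as an alternative. All 36 members are accounted for. Those called in any comparison, with the regulators and 4 NRF2 targets (Nqo1, Hmox1, Gclc and Gclm), are named with their levels, and pathway genes when called, up to 3 per list and comparison furthest from 0, the others being named after their values were seen. The scripts were tested on simulated data.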

Additional observations from a re-analysis of the deposited data

Results flagged for a closer look

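For 5 of the 32 tested genes, and for Dnmt1, the log2 fold change of DNMT1 siRNA against control siRNA was on opposite sides of 0 in untreated and in OB-induced cells, with the counting interval off 0 on each side. Subtracting the untreated value from the induced value gave 0.55 for Gsr, 0.73 for Txnrd1, 0.47 for Prdx1, 0.18 for Ephx1 and 0.19 for Abcc1. For Dnmt1 the same difference was 1.13. In each case the untreated value was negative and the induced value positive, as for 7.9% of all genes tested under the same rule. Each value rests on 1 library per group, and these differences were not tested. Signs in induced cells rest on the label of siDNMT1_OB, which Dnmt1 goes against, and would turn with it.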

How the results depend on the processing

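Each group was 1 library, so no library could be left out and no difference has a replicate error. No paired analysis was possible because each group was 1 library, so replicate numbers pair nothing. The additive fit of the 4 libraries, given last, holds induction as a term beside the siRNA. The members' calls and their directions were recomputed under 3 other scalings, 2 other filters, 2 other prior counts and an added test of the reads, 8 alternatives in all. Single-gene results were compared for members called in any comparison, the tested regulators and Nqo1, Hmox1, Gclc and Gclm. Of these, 611 kept their side of the threshold and 1 did not, Gsr with induction under control siRNA, at −0.99 under upper quartile scaling. The 611 include the sums of Gsta1 with Gsta2 and Gstp1 with Gstp2, outside the 8 alternatives. The 2 filters leave a gene's fold change as it is, so they could not move it. Gsta1, at a mean of 1.31 CPM, was not tested at a mean CPM of at least 5. Scaling changed the number of negative members in siDNMT1 against control from 26 to between 24 and 27 of 32, and moved the median of all genes by under 0.1.

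Without a filter on low counts, 1 member was called higher in the library labelled siDNMT1_OB against OB (Ahrr, on 7 and 21 counts), and 6 members were at least 1 apart and higher between the siRNA effects. Without that filter the genes called higher and lower over the whole table were 1379 and 1219 in siDNMT1 against control, 1381 and 1892 in the library labelled siDNMT1_OB against OB, 4080 and 2062 with induction under control siRNA, and 2550 and 1316 under DNMT1 siRNA, and 2420 and 2965 were apart between the siRNA effects. In the library labelled siDNMT1_OB against OB this took the share of higher among called genes from 63.3% to 42.2%. With a mean CPM of at least 5 the counts were 110 and 91, 185 and 72, 825 higher with induction under control siRNA, 509 and 229, and 267 and 131 for the same comparisons. These filters change which genes are tested.

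The additive edgeR fit called 0 genes for the siRNA (1148 at an unadjusted p under 0.05), against 135 by DESeq2 and 619 without a filter. For induction it called 2786 genes, against 2441 by DESeq2 and 4812 without a filter.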
